A study of Mus musculus with 35 samples.

Results

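Mitf, Tfe3, Tfeb and Tfec are the 4 genes of one transcription factor family, and their RNA was followed here across induced pluripotent stem (iPS) clones, embryonic stem (ES) cells and the primary cells from which the clones were made. The members were taken by name from the array design, which still calls the relatives Tcfe3, Tcfeb and Tcfec, so these were matched through the synonyms and transcript accessions of RefSeq. That gave 8 probes for the 4 genes, of 41174 gene probes on the array, and 7 of the 8 were among the 27623 probes tested. Mitf was chosen by its measured values in these arrays, since it had been called higher in PαS-derived than in OP-derived clones, and its 3 relatives were added as family. The difference between PαS- and OP-derived clones is therefore given as a description, with no test, for every member.

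The study compared iPS clones by their cell of origin. PαS cells are bone marrow mesenchymal stem cells sorted as CD45- Ter119- PDGFRa+ Sca-1+, OP cells are osteo-progenitors sorted as CD45- Ter119- PDGFRa- Sca-1-, and TTF are tail tip fibroblasts with no such sort. All 3 came from 6-week-old mice with a Nanog reporter that also gives resistance to puromycin, and they received retroviral Oct3/4, Sox2, Klf4 and c-Myc (4F) or the same without c-Myc (3F). There were 5 clones for each of the 6 combinations of source and factors, 30 in all, 1 array for each of the ES lines EB-3 (ES 1) and RF8 (ES 2), and 1 array for each source. The labels do not say that clones of a group came from separate animals, so p-values measure the spread between clones. The iPS clones were grown on SNL feeder cells, a mouse fibroblast line, which can add fibroblast RNA to a clone.

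The MiT/TFE proteins have a basic helix-loop-helix leucine zipper and bind the E-box CACGTG and related sites as dimers with themselves or with each other. Mitf is best known as the lineage regulator of melanocytes, and it also acts in osteoclasts and mast cells. Tfeb and Tfe3 drive genes of lysosomes and autophagy when nutrient signalling through mTORC1 falls and they enter the nucleus, and in mouse ES cells nuclear Tfe3 is known to hold back the exit from pluripotency. Tfec is found mainly in macrophages.

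The probes of the family lie in different parts of the genes, and 4 of their sequences are shown to place the readout. Each of the 4 has at least 1 reading frame without a stop codon, and no genome was used to place a probe in coding sequence or a UTR, so the remaining probes are given by position only. Positions are those of the array's annotation on mouse build mm7, all on the plus strand. The weak Mitf probe spans a splice junction between chr6:98094274-98098530 and, read in an open frame, holds a run of 4 arginine codons, in capitals, as the basic region with which Mitf contacts DNA does.
Mitf, A_52_P100140: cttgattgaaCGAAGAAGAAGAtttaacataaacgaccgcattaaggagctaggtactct
Tfeb, A_51_P370082: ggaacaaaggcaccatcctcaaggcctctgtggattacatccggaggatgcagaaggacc
Tfe3, A_52_P34397: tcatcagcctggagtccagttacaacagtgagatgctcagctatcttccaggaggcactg
Tfe3, A_52_P461313: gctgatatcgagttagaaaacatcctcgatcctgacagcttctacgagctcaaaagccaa
The only Tfeb probe also spans a splice junction, at chr17:45925537-45926064, and the weaker Tfe3 probes lie in unbroken stretches at chrX:6201065-6201124 and chrX:6198691-6198750. The brightest probe of Mitf, Tfe3 and Tfec, called the main probe, lies nearest the 3′ end. These were A_51_P364274 for Mitf (chr6:98106473-98106532), A_51_P199671 for Tfe3 (chrX:6207811-6207870) and A_52_P127925 for Tfec, which is on the minus strand (chr6:16774448-16774507). The array therefore reads the gene as a whole and does not tell apart the start sites from which the isoforms of Mitf begin.

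All levels are log2 of the background-subtracted intensity relative to the 75th percentile of the same array, so a level of 0 is that percentile, and levels of different probes are not compared. Between 56.6% and 65.7% of probes were well above background on the arrays of clones, and 63.0% to 71.2% on the others. In 5 clones Sox2, Nanog and Gm397 were each 8-fold or more under the ES mean (4F-OP-iPS #1, #2 and #3, and 4F-TTF-iPS #1 and #2). Where leaving them out moved a value much, it is given with and without them. Pou5f1, which encodes Oct3/4, was above background in all 30 clones and in no source. The PαS array read Pdgfra at 0.98 and Ly6a, the Sca-1 gene, at 5.58. The OP array read them at 1.58 and 3.54, both above background although OP cells were sorted as negative for these proteins.

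Mitf was higher in clones derived from PαS cells than in those derived from OP cells, with TTF-derived clones between them. In bulk RNA, fewer cells with a transcript and less of it per cell cannot be told apart. Its main probe is printed at 10 places on each array, and the 7 to 10 spots kept per array had a median SD of 0.10 on the log2 scale. In 4F-PαS-iPS clones #1 to #5 Mitf stood at -1.76, -2.37, -2.38, -2.20 and -2.15. In 3F-PαS-iPS clones it stood at -2.01, -2.13, -2.48, -2.47 and -2.35. The 10 PαS-derived clones thus lay within a range of 0.71 whichever factors were used.

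OP-derived clones were lower and far more scattered. The 4F-OP-iPS clones #1 to #5 read -5.03, -4.02, -4.58, -2.57 and -3.64. The 3F-OP-iPS clones read -4.01, -2.88, -3.24, -3.42 and -3.49. The lowest PαS-derived clone (-2.48) was just above the highest OP-derived clone (-2.57), so the groups did not overlap, but the gap between these clones was about as small as the spot SD. The 3 lowest of all 30 clones were 4F-OP-iPS #1, #3 and #2, which are the 3 OP-derived clones low in Sox2, Nanog and Gm397. Both low TTF-derived clones held the highest Mitf of their group.

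TTF-derived clones were tight. The 4F-TTF-iPS clones #1 to #5 read -2.71, -2.72, -3.22, -2.89 and -2.93, and the 3F-TTF-iPS clones -2.90, -3.11, -3.09, -3.01 and -3.35. All 10 lay below every PαS-derived clone and within the range of the OP-derived ones. The share of all probes that separate PαS- from TTF-derived clones was not counted. In the ES lines Mitf was at -4.23 (ES 1) and -3.76 (ES 2), below 26 of the 30 clones.

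**Figure D1:**
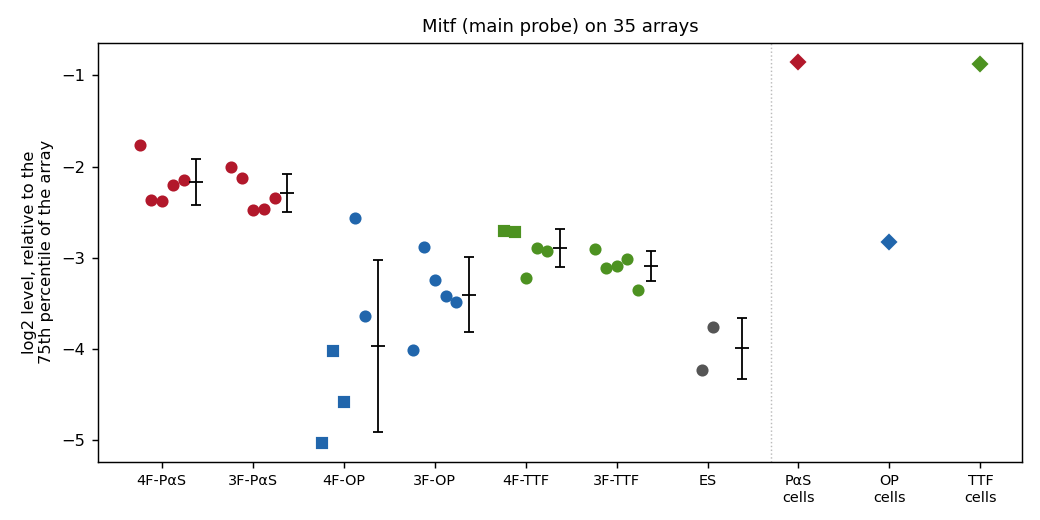
Level of the main Mitf probe on each of the 35 arrays, as log2 relative to the 75th percentile of the array. Circles are clones and ES lines, squares the 5 clones low in Sox2, Nanog and Gm397, diamonds the single arrays of source cells, and bars the mean ± SD. The PαS-derived clones sit between -2.48 and -1.76, above all OP- and TTF-derived clones.

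As group means, Mitf was at -2.17 ± 0.25 (SD, n = 5) in 4F-PαS-iPS, -2.29 ± 0.21 in 3F-PαS-iPS, -2.90 ± 0.20 in 4F-TTF-iPS, -3.09 ± 0.17 in 3F-TTF-iPS, -3.41 ± 0.41 in 3F-OP-iPS, -3.97 ± 0.94 in 4F-OP-iPS and -4.00 ± 0.33 (n = 2) in ES cells. Of the neighbours in this order, only 3F-PαS-iPS and 4F-TTF-iPS had ranges apart, with means 0.61 apart. The other neighbours differed by 0.03 to 0.56 and overlapped.

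Over both sets of factors, Mitf was 1.46 higher on the log2 scale (2.75-fold) in PαS- than in OP-derived clones. With normexp it was 0.93, under 2-fold. The difference was 1.80 among 4F-clones and 1.12 among 3F-clones. Without the 5 low clones it was 1.03. The 4 pluripotency markers moved with those clones, since their median difference between PαS- and OP-derived clones was 2.10 with them and -0.02 without them, and their part in the rest of the Mitf difference was not tested. In the fit across all probes, 443 of 27623 were called between these clones at an adjusted p under 0.05 and at least 2-fold, which is 1.60%, and Mitf was the only one of the 7 member probes among them. All PαS-derived clones lay above all OP-derived clones for 6 probes (0.0217%), of which the main Mitf probe was 1. Both counts are descriptions, since this contrast chose the gene.

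PαS- and OP-derived clones shared 3 of the 8 slides that carried clones. On slide 2 the PαS-derived clone read -2.37 and the 3 OP-derived clones averaged -3.60. On slide 3 the means were -2.27 for 2 PαS-derived and -4.52 for 2 OP-derived clones. On slide 5, which held 3F-clones, they were -2.41 and -3.44. Mitf was thus higher in the PαS-derived clones on each shared slide, by 1.03 to 2.26, and by 1.43 with slide as a block. Both OP-derived clones on slide 3 and 1 of the 3 on slide 2 were low clones. Without these, slide 3 held no OP-derived clone and the difference on slide 2 was 0.74, while that on slide 5 stayed at 1.03.

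**Figure D2:**
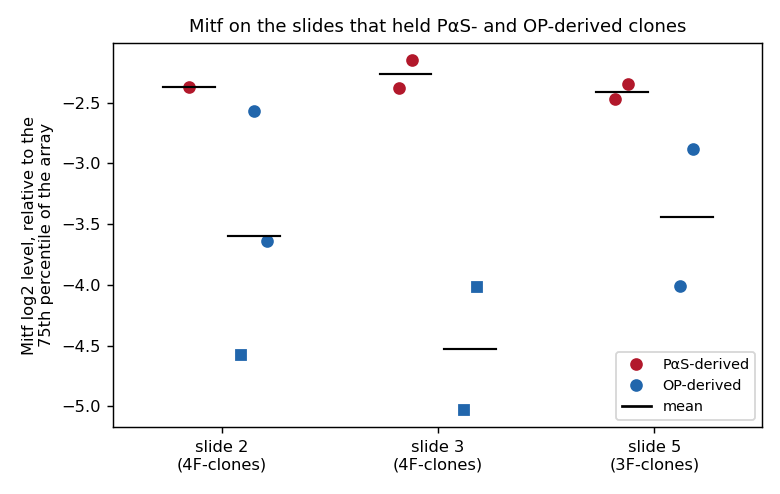
Level of the main Mitf probe (log2 relative to the 75th percentile of the array) on the 3 slides that held both PαS- and OP-derived clones. Each point is a clone, squares are clones low in Sox2, Nanog and Gm397, and lines are means. On every slide all PαS-derived clones lie above all OP-derived clones, and the means differ by 1.23, 2.26 and 1.03.

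The source cells also had OP lowest, but TTF stood level with PαS, on 1 array each and so with no replicate. Mitf read -0.85 in PαS cells, -0.87 in TTF and -2.83 in OP cells. The PαS and TTF arrays thus held 3.95 and 3.90 times the level of the OP array, and no clone reached either of them. The weak Mitf probe was well above background on only 5 arrays: PαS cells (-5.45), TTF cells (-5.38), ES 1 (-6.19), 3F-TTF-iPS #3 (-4.72) and 3F-TTF-iPS #5 (-4.45). On the OP array it was not, which puts PαS cells at least 2.05-fold and TTF cells at least 2.14-fold above OP cells. It measured no difference between PαS- and OP-derived clones, because it was not well above background on any of their 20 arrays.

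Leaving out c-Myc did not move Mitf beyond the spread between clones. The main probe changed by -0.11 (SE 0.28) from 4F to 3F in PαS-, 0.56 (SE 0.28) in OP- and -0.20 (SE 0.28) in TTF-derived clones, with limma adjusted p = 0.869, 0.214 and 0.705. Over all sources the difference was 0.08 (SE 0.16, adjusted p = 0.754). In OP-derived clones it turned to -0.30 without the 5 low clones. No p here shows that the levels were alike.

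Mitf was modestly higher in clones than in ES cells. The TTF-derived clones, which the choice of Mitf did not use, lay 1.00 above the mean of the ES lines on the log2 scale (SE 0.34, limma adjusted p = 0.0169). The mean of all clones lay 1.03 above, as a description, since 20 of the 30 are the clones by which Mitf was chosen. Of all probes, 36.2% were called between clones and ES cells and 36.8% between TTF-derived clones and ES cells, so a call here is common. Of the 7 member probes 3 passed in each, Mitf and both of Tfec, but the Tfec probes entered the test through groups of clones alone, so they are no support. Both Mitf differences sit at the 2-fold limit and fell under it without ES 1 (0.79 and 0.77 over all and TTF-derived clones) and with quantile scaling (0.97 and 0.88). The call in TTF-derived clones was also lost with slide as a random block (1.01, adjusted p = 0.0505), with the deposited table (0.98) and without the 5 low clones (0.94), while over all clones the difference without the low clones was 1.15. Leaving out single clones took either value just under 2-fold, to 0.97 over all clones without 4F-OP-iPS #4 and to 0.98 or 0.99 in TTF-derived clones without 4F-TTF-iPS #1 or #2 or 3F-TTF-iPS #1 or #4. With normexp background correction the differences were 0.42 and 0.33, and neither passed. Neither ES array was scanned in the session of the clones, so cell type and session cannot be told apart.

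By the main probes, Tfe3, the family member linked to the exit from pluripotency, had the narrowest range across clones. Its main probe ran from -0.59 to 0.66 over the 30 clones. In 4F-PαS-iPS clones #1 to #5 it read 0.64, 0.47, 0.03, 0.63 and 0.48, and in 3F-PαS-iPS clones -0.09, -0.10, 0.10, -0.01 and 0.09. The 4F-OP-iPS clones read 0.00, 0.40, 0.08, 0.23 and 0.04, and the 3F-OP-iPS clones 0.10, -0.12, 0.39, -0.59 and -0.29. The ranges of these 4 groups overlapped. The 4F-TTF-iPS clones read 0.27, 0.36, 0.19, 0.43 and 0.23, and the 3F-TTF-iPS clones 0.15, 0.66, -0.27, -0.25 and 0.02. All 4F-TTF-iPS clones lay above all 3F-PαS-iPS clones, and every other pair of clone groups overlapped.

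No difference in Tfe3 between 3F- and 4F-clones was called. The main probe differed by -0.31 over all sources (3F minus 4F, SE 0.12, limma adjusted p = 0.0582), and the other Tfe3 probes by -0.15 (SE 0.14, adjusted p = 0.473) and -0.19 (SE 0.19, adjusted p = 0.502). PαS- and OP-derived clones differed by 0.20, 0.22 and 0.32 in the 3 probes. The ES lines read 0.93 and -0.46 for the main probe, so they stood 1.39 apart, and 29 of the 30 clones lay between them. For the main probe clones differed from ES cells by -0.10 (SE 0.24, adjusted p = 0.751). For the probe at chrX:6201065-6201124, clones were 0.71 above ES cells (SE 0.27, adjusted p = 0.0316), which is under 2-fold. There ES 1 read -3.39 and ES 2 -4.94, and only 13 of the 30 clones lay above ES 1, so the difference rests on ES 2. Among the sources the main probe was 0.98 in TTF, 0.29 in PαS and -0.21 in OP cells. The probe at chrX:6201065-6201124 put PαS below OP cells, with -2.70 in TTF, -4.01 in PαS and -3.37 in OP cells. The remaining Tfe3 probe read -4.68 in TTF and -5.74 in PαS cells and was not well above background in OP cells. TTF cells were thus highest by every Tfe3 probe, while the order of PαS and OP cells differed between probes.

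Tfeb, the lysosomal regulator, followed the order of sources seen for Mitf but over a narrower range. The 4F-PαS-iPS clones #1 to #5 read -2.16, -2.92, -2.72, -2.44 and -2.89, and the 3F-PαS-iPS clones -3.03, -2.91, -2.81, -2.79 and -2.88. The 4F-OP-iPS clones read -4.09, -3.20, -3.57, -3.28 and -3.65, and the 3F-OP-iPS clones -3.28, -3.67, -2.71, -3.82 and -3.96. Only 3F-OP-iPS #3 reached into the range of the PαS-derived clones. TTF-derived clones ran from -3.82 to -2.78.

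The mean of Tfeb was 0.77 higher in PαS- than in OP-derived clones (1.70-fold), 0.68 with slide as a block, and 0.58, 0.84 and 0.64 on slides 2, 3 and 5. Between 3F- and 4F-clones it differed by -0.26 (SE 0.35, limma adjusted p = 0.746) in PαS-, 0.07 (SE 0.35, adjusted p = 0.932) in OP- and 0.03 (SE 0.35, adjusted p = 0.964) in TTF-derived clones. The ES lines lay at -1.85 and -5.13, on either side of all 30 clones. The mean difference from ES cells of 0.32 (SE 0.41, adjusted p = 0.528) hence turned to -1.32 without ES 2 (adjusted p = 0.00335) and rose to 1.96 without ES 1 (adjusted p = 9.93e-05). With 1 ES array left, that array is assumed to vary as the clones of a group do, so these show only that the ES lines lie on opposite sides. In the sources Tfeb was -2.65 in TTF, -3.56 in PαS and -3.76 in OP cells.

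**Figure D3:**
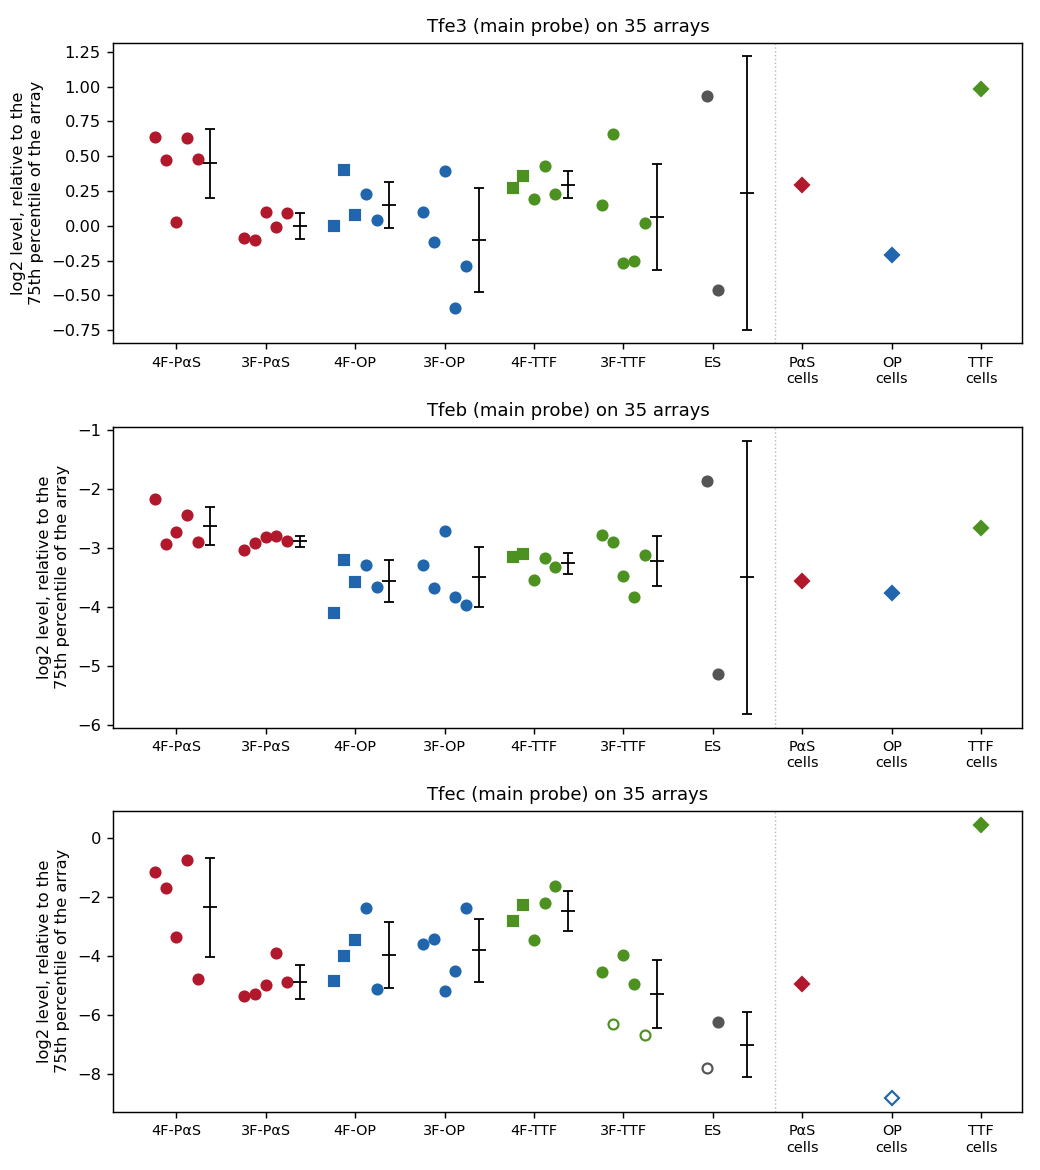
Level of the main probes of Tfe3, Tfeb and Tfec on each of the 35 arrays, as log2 relative to the 75th percentile of the array, with each panel on its own scale. Symbols are as in the plot of Mitf by array, open symbols were not well above background, and bars are the mean ± SD. Tfec ranges from -5.35 to -0.75 among the 28 clones that read it well above background, and its highest level is 0.46 in TTF cells.

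Tfec varied most of the family, from -5.35 to -0.75 on the log2 scale among the 28 clones that read it well above background, and it was the one member with a called difference between 3F- and 4F-clones. The 4F-TTF-iPS clones #1 to #5 read -2.82, -2.26, -3.43, -2.21 and -1.62. The 3F-TTF-iPS clones read -4.52, -6.30, -3.97, -4.92 and -6.66, of which #2 and #5 were not well above background. Every 4F-TTF-iPS clone lay above every 3F-TTF-iPS clone, a description, since the share of all probes that separate these groups was not counted.

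In PαS-derived clones the pattern was less even. The 4F-PαS-iPS clones read -1.14, -1.67, -3.33, -0.75 and -4.76, and the 3F-PαS-iPS clones -5.35, -5.26, -4.96, -3.90 and -4.88. Clone #5 of the former fell within the range of the latter. In OP-derived clones there was no such order: the 4F-OP-iPS clones read -4.85, -3.98, -3.44, -2.36 and -5.11, and the 3F-OP-iPS clones -3.57, -3.42, -5.16, -4.49 and -2.36.

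Tfec was 1.73 lower on the log2 scale in 3F- than in 4F-clones over all sources (SE 0.39, limma adjusted p = 0.00264). In TTF-derived clones the difference was -2.80 (SE 0.67, adjusted p = 0.00996), in PαS-derived clones -2.54 (SE 0.67, adjusted p = 0.126) and in OP-derived clones 0.15 (SE 0.67, adjusted p = 0.921). The background of calls between 3F- and 4F-clones was 5.34% over all sources, 5.77% in TTF-, 0.0181% in PαS- and 4.51% in OP-derived clones, and Tfec was the only member called in the first of these and in TTF-derived clones. No member was called in PαS- or OP-derived clones, where 5 and 1246 probes passed and 4773 and 6790 had an unadjusted p under 0.05.

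That the effect differed between sources did not pass the test. The 3F minus 4F difference of Tfec in PαS- minus that in OP-derived clones was -2.69 (SE 0.95, limma adjusted p = 0.131), and that in OP- minus TTF-derived clones 2.95 (SE 0.95, adjusted p = 1). The 4F- and 3F-clones of a source shared no slide. With slide as a random block the difference in TTF-derived clones stood at -2.86 and was no longer called (adjusted p = 0.219), while that over all sources remained called. With normexp the differences shrank to -1.08 in TTF-derived clones (adjusted p = 0.0774) and -0.88 over all sources, and neither was called. Without the 5 low clones the differences were -2.85 in TTF-derived clones (adjusted p = 0.0616, from 2 fewer 4F-clones) and -1.82 over all sources (adjusted p = 0.0169). In PαS-derived clones the call appeared without 4F-PαS-iPS #3 (adjusted p = 0.0337), without #5 (0.0425) and with normexp (0.0269).

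The second Tfec probe, at chr6:16786105-16786164, was near background. It was well above background in all 5 4F-TTF-iPS clones, 3 4F-PαS-iPS clones and 2 clones of each OP-derived group, and in no 3F-TTF-iPS or 3F-PαS-iPS clone. Since it was tested only because every 4F-TTF-iPS clone read it, the group in which it is high, its differences are a description that lends the main probe no support. In TTF-derived clones the difference was at least 1.40-fold, with 4F-clones higher. In PαS-derived clones 3F minus 4F was -1.49 on the log2 scale, with no bound, since only 3 4F-clones read it well above background.

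Compared with ES cells, Tfec was higher in the clones. The ES lines read -7.77, not well above background, and -6.21, and 28 of the 30 clones lay above both. The mean difference was 3.21 over all clones and 3.12 in TTF-derived clones, and against ES 2 alone it was 2.43 and 2.34. These are a description, since only 1 of 2 ES arrays measured Tfec and the probe entered the test through 5 of the 6 groups of clones, the side on which it is high. With normexp the differences were 0.71 and 0.67. The second probe was dim on both ES arrays and well above background in 12 of 30 clones, 5 of them from TTF. The filter let it in through 4F-TTF-iPS clones alone. Its log2 differences of 1.74 over all clones and 2.10 in TTF-derived clones are a description. They rest in part on clones that did not read it well above background, so they give no bound. With normexp its differences were 0.05 and -0.0037.

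The source arrays gave the widest range of Tfec. It stood at 0.46 in TTF cells, above every clone, at -4.93 in PαS cells, and on the OP array it was not well above background, which puts TTF cells at least 123-fold above OP cells. The second probe put them at least 11.2-fold above. The macrophage markers Ptprc, Adgre1, Csf1r and Cd68 were all 4 above background on the TTF array, with a log2 of their summed level of 7.98, against -0.75 in PαS cells and -2.40 in OP cells. Ptprc, which encodes CD45, was at 4.14 in TTF cells. The part of such cells in the Tfec level of the TTF array was not tested. In the 30 clones none of the 4 probes of Ptprc and the 2 of Adgre1 was above background on any array, and 2 of the 4 markers, Csf1r and Cd68, were above it on each. The summed level ran from -0.60 to 2.61 with a median of 1.30 in 4F-clones and from 0.67 to 3.39 with a median of 2.02 in 3F-clones, and its part in the difference of Tfec between them was not tested.

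**Figure D4:**
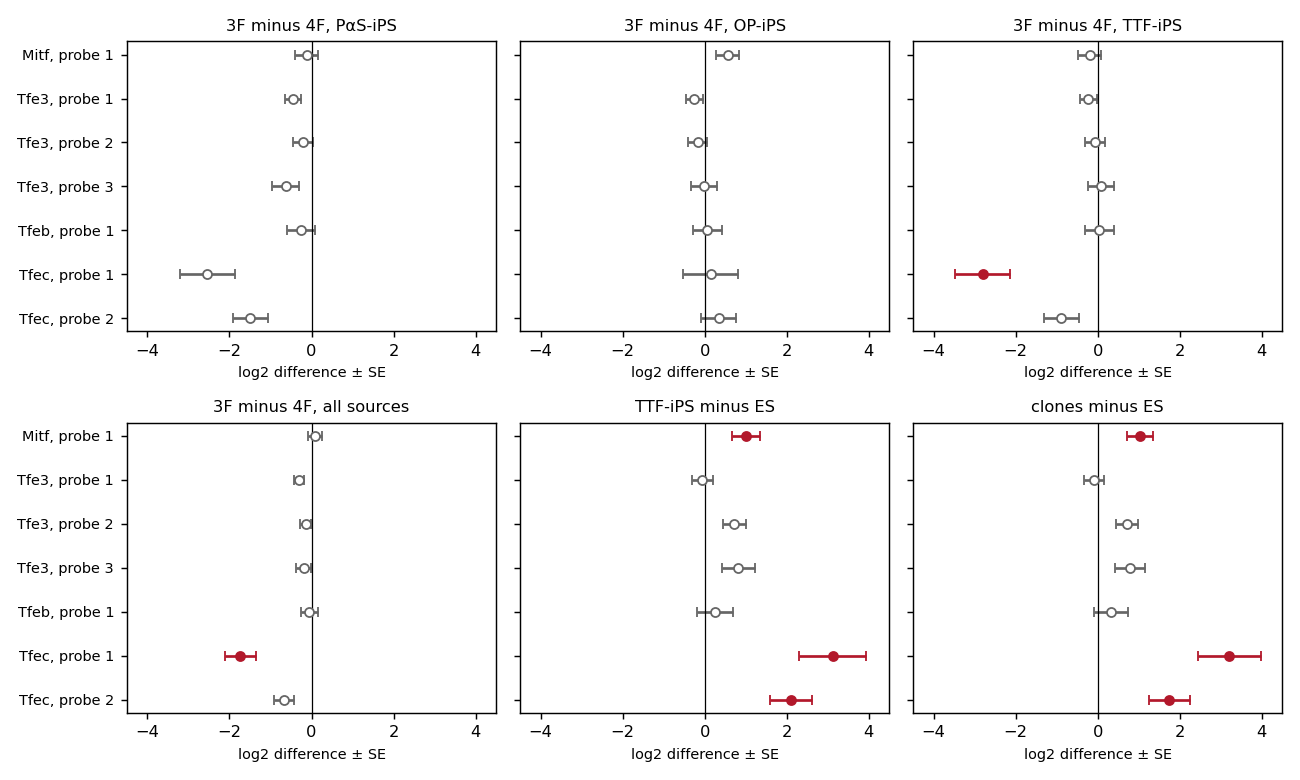
Log2 difference of the 7 tested probes of Mitf, Tfe3, Tfeb and Tfec between 3F- and 4F-clones within each source and over all, and between clones and ES cells, with the SE of the limma fit. Filled red points passed adjusted p under 0.05 and at least 2-fold, and probes are numbered by brightness. Tfec probe 2 was tested only because all 4F-TTF-iPS clones read it, and against ES cells both Tfec probes, and Mitf over all clones, are a description. The main Tfec probe lies at -2.80 in TTF- and 0.15 in OP-derived clones.

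Over the 30 clones, the genes that ran most like Mitf were ranked by Pearson r among 15990 named genes, as a description over clones that share a source and slides. The 5 highest were Clcn6 (r = 0.82), an endosomal exchanger of chloride and protons, Gjb5 (0.81), a connexin, Apba3 (0.81), 2410003L11Rik (0.80) and 1110033J19Rik (0.80). The 5 lowest were H2-M3 (-0.85), a non-classical MHC class I gene, BC072620 (-0.83), Efha1 (-0.82), Thtpa (-0.82), a thiamine triphosphatase, and Lrrc28 (-0.82). Without the 5 low clones r ran from 0.62 to 0.76 for the former and from -0.78 to -0.64 for the latter, and within groups from 0.58 to 0.78 and from -0.75 to -0.61. These genes are the extremes of the ranking over the same clones, so nothing further is read from these values. Gjb5 averaged 2.70 ± 0.68 (SD, n = 10) in PαS-, 1.31 ± 0.54 in TTF- and 0.81 ± 1.23 in OP-derived clones. H2-M3 ran the other way, at -0.53 ± 0.22, -0.02 ± 0.20 and 0.31 ± 0.53. Of the relatives, Tfeb had r = 0.70 with Mitf (rank 102), Tfe3 0.26 and Tfec 0.23, and within groups Tfeb had r = 0.32.

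Genes known to respond to the family were then counted, from lists chosen with earlier results known. No melanocyte gene was called between PαS- and OP-derived clones. Of 14 genes, 7 were measurable and 0 were called, where 1.60% of all probes were. Tyr and Tyrp1, the enzymes of melanin synthesis, were above background on no array, and the brighter Dct probe on 5 clones and ES 2. The median difference of the 7 was 0.71 on the log2 scale, against 0.03 over all probes, with Mlana at 1.51 (SE 0.62, limma adjusted p = 0.156) and Kit, the receptor of melanoblasts and mast cells, at 0.71 (SE 0.33, adjusted p = 0.209). With slide as a block that median was 0.40. Without the 5 low clones it was 0.30, Mlana stood at 0.10, and Kit passed at 1.02 (adjusted p = 0.0345).

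Of the same 7 genes, 2 were called higher in 3F- than in 4F-clones over all sources, where 5.34% of all probes were called. Mlana differed by 1.84 (SE 0.51, limma adjusted p = 0.0107). Trpm1 differed by 1.62, as a description, since it was tested only because all 3F-OP-iPS and 3F-TTF-iPS clones read it, and 11 of 15 4F-clones did not read it well above background. Both are classic Mitf targets. Mitf itself differed by 0.08, and its part in the differences of Mlana and Trpm1 was not tested. Both calls were lost with slide as a random block, at adjusted p = 0.174 and 0.0952, where the log2 differences stood at 1.68 and 1.52. With normexp the log2 differences were 0.93 (adjusted p = 0.0268) and 0.12 (adjusted p = 0.757), and neither was called. Without the 5 low clones Mlana was 0.60 higher and not called (adjusted p = 0.291). The 4 pluripotency markers moved with this comparison too, with a median of 1.39 against 0.03 over all probes, and of -0.41 without the low clones. Their part was not tested. Against ES cells Pmel (-2.14, SE 0.61, adjusted p = 0.00456) and Slc24a5 (-1.44, SE 0.17, adjusted p = 1.79e-07) were lower in clones, 2 of 7 where 36.2% of all probes were called.

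Osteoclast genes, another Mitf programme, showed 0 of 12 called between PαS- and OP-derived clones. Acp5, the tartrate-resistant phosphatase, was 0.96 higher in the former (SE 0.30, limma adjusted p = 0.0659). Without the 5 low clones Acp5 was 0.44 higher (adjusted p = 0.504). Between 3F- and 4F-clones over all sources 2 of 12 were called, where 5.34% of all probes were. Itgb3, the integrin beta 3 chain, was higher in 3F-clones (1.75, SE 0.42, adjusted p = 0.00463). The Itgb3 call was lost with slide as a random block (adjusted p = 0.0707) and without the 5 low clones (0.0898), where its log2 differences were 1.85 and 1.23. Tnfrsf11a, the receptor RANK, was tested only because all 5 3F-OP-iPS clones read it. It was well above background on 1 other 3F-clone, 1 of 15 4F-clones and no PαS-derived clone, so its difference of 1.70 is a description resting largely on dim values, and with normexp it was 0.10. Against ES cells 5 of 12 were higher and 2 lower in clones, where 36.2% of all probes were called, but 4 of these 7 entered the test on the side where they are high alone and are a description. Csf1r, the receptor of M-CSF, was read on no ES array and was at least 42.2-fold higher in clones, and Nfatc1 was read on 1 ES array and was 3.85 higher. Both lower genes, Calcr and Dcstamp, entered through the ES arrays. The other 3, Itgb3 (2.41, SE 0.85, adjusted p = 0.0192), Mst1r (1.72, SE 0.66, adjusted p = 0.0300) and Ostm1 (1.02, SE 0.23, adjusted p = 0.000487), were read on all clones and both ES arrays. Calcr was well above background in 8 of 30 clones and Dcstamp in 0. With normexp 5 of the 12 were called, and the log2 differences were 2.20 for Csf1r, 1.06 for Nfatc1 and -1.52 for Calcr. Mst1r (0.97, adjusted p = 0.102) and Dcstamp (-0.44, adjusted p = 0.365) were then no longer called.

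Lysosomal genes, the targets of Tfeb and Tfe3, held no call between PαS- and OP-derived clones, and many were higher in clones than in ES cells. Of 34 genes 0 were called in the former comparison, though 28 had a positive difference, with a median of 0.28 against 0.03 over all probes and a range of -0.38 to 0.71. The highest was Ctsa, cathepsin A, at 0.71 (limma adjusted p = 0.0709). With slide as a block the median of the list was 0.14, and with normexp the medians were 0.22 for the list and 0.15 for all probes. Against ES cells 17 of 34 rose and 0 fell, where 36.2% of all probes were called in either direction, with a median of 1.15 against -0.11 over all probes. Ctss, cathepsin S, was 1 of the 17 but was read on 1 ES array only and entered through groups of clones. The largest were Psap, the precursor of the saposins (3.97, SE 0.41, adjusted p = 2.14e-08), Naglu (3.63, SE 0.41, adjusted p = 8.96e-08) and Gaa, the acid glucosidase (2.01, SE 0.29, adjusted p = 2.36e-06).

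The fibroblast markers moved with this comparison. Of 14, 10 were higher in clones, with a median of 4.18 and of 2.55 with normexp, and 4 of the 10 (Col3a1, Dcn, Postn and Twist2) were read on 1 ES array only and entered through the clones. The log2 of their summed level was 5.24 to 7.69 in the ES lines, 7.13 to 8.98 in the clones and at least 9.73 in each source, and 9 to 14 of them were above background on an ES array. The pluripotency markers moved too, with a median of -2.77 over the 4 in clones against ES cells, of which 1 was called, and without the 5 low clones the median was -1.61 with 3 called. The part of feeder cells in the differences between clones and ES cells was not tested, nor was that of residual source cells or of the lower pluripotency markers. Between PαS- and OP-derived clones 0 of 14 fibroblast markers were called, with a median of -0.09, and of -0.21 without the 5 low clones.

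CACGTG, searched on both strands from 250 bases before to 50 after each start in RefSeq (GRCm38.p6), was found in 13 of 29 windows of 26 lysosomal genes, or 44.8%, and in 7.15% of 32851 windows of all genes. Of the windows of the melanocyte list, 15.4% held it and 61.5% held CATGTG, which is in 14.2% of all. No window of Mitf, Tfe3, Tfeb or Tfec held either. TGACGTCA, a cyclic AMP response element, was in 1 of the 3 Mitf windows, that of the most downstream start, and in 1.79% of all windows. A match is only the presence of these letters.

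**Figure D5:**
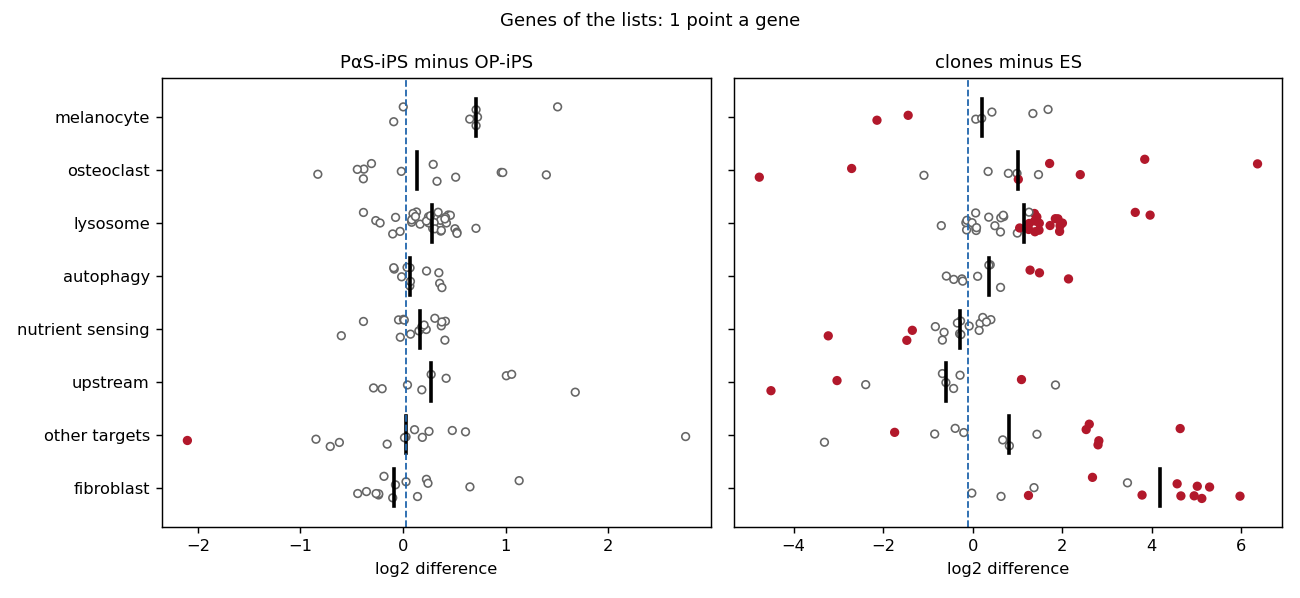
Log2 differences of the tested genes of 8 lists between PαS- and OP-derived clones (left) and between clones and ES cells (right). Each point is a gene, filled red where adjusted p was under 0.05 and the change at least 2-fold, the black line is the median of the list and the dashed line that of all probes. The lysosomal median is 0.28 on the left and 1.15 on the right, and the fibroblast median -0.09 and 4.18.

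The other lists held few calls. Of 11 autophagy genes 0 were called between PαS- and OP-derived clones (median 0.07, and -0.01 with normexp), and Wipi1 (2.14), Gabarapl1 (1.49) and Sqstm1 (1.28) were higher in clones than in ES cells, with limma adjusted p of at most 3.95e-05. These 3 of 11 are a smaller share than the 36.2% of all probes called there. Of 16 genes of nutrient sensing, the Rag GTPases, Ragulator, mTOR and calcineurin among them, 0 were called between PαS- and OP-derived clones (median 0.17, and 0.04 with slide as a block). Against ES cells Rragb (-3.23), Rragd (-1.47) and Ppp3r1 (-1.35) were lower, with adjusted p of at most 0.00798, and with normexp Rragb was -1.96 and still called and Ppp3r1 was -0.86 and not called. Of the 9 regulators of Mitf transcription 0 were called between PαS- and OP-derived clones, with Otx2 at 1.68 (adjusted p = 0.138) and at 0.15 without the 5 low clones. Lef1 (-4.51, adjusted p = 0.00421) and Foxd3 (-3.03, adjusted p = 0.00258) were lower and Gsk3b (1.09, adjusted p = 0.000119) higher in clones than in ES cells, and with normexp Gsk3b was 0.74 and not called.

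Among 13 other reported targets of the family, 1 was called between PαS- and OP-derived clones, where 1.60% of all probes were, and 6 between clones and ES cells, where 36.2% were. Cdkn2a, which encodes p16 and Arf, was 2.10 lower on the log2 scale in PαS-derived clones (-2.07 against 0.03, SE 0.39, limma adjusted p = 0.00645), and with slide as a block it was -1.94 (adjusted p = 0.0817). Against ES cells Cdkn1a (2.82), Cdkn2a (2.80) and Tbx2 (2.61) were the largest of the 4 genes read on both sides and higher in clones, and Apex1 (-1.74) was lower, with adjusted p of at most 0.000657. Ppargc1a was 4.64 higher as a description, since 1 of 2 ES arrays read it and it entered the test through the clones. With normexp Ppargc1a was 1.85 and Cdkn2a 1.77. Of the 4 pluripotency markers, Zfp42 was 1.81 higher in PαS-derived clones (adjusted p = 0.0442). That call was lost with normexp (1.53, adjusted p = 0.0737), with quantile scaling (1.73, adjusted p = 0.051), with slide as a block (2.23, adjusted p = 0.101) and without the 5 low clones (0.59). Against ES cells Zfp42 was 5.34 lower in clones on the log2 scale (-5.34, SE 0.83, adjusted p = 8.11e-06).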

How the data were processed

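RNA from 35 samples was hybridised to 1-colour Agilent mouse arrays. The deposited intensity values were made by the authors with Feature Extraction 9.5.3.1, 10.5.1.1 or 10.7.3.1, which subtracts background per spot. The authors also deposited a table of log2 values from GeneSpring GX, used as an alternative only. Outlier spots (54 to 152 per array) and control spots were left out, spots of a probe averaged, and log2 of the processed intensity taken relative to the 75th percentile of each array, with no pseudocount. A probe was tested if all arrays of any of the 7 groups (6 of clones, 1 of ES cells) read it well above background. One limma 3.58.1 model (R 4.3.3) covered those 32 arrays, p-values were adjusted by Benjamini-Hochberg over all 27623 probes, and a call needed adjusted p under 0.05 and at least 2-fold. A bound ("at least") sets the brighter mean against the lowest signal well above background. The number of arrays limits precision. Members, gene lists and tests were chosen with earlier results of these data known. Named besides the members are the 5 genes most and 5 least like Mitf, Sox2, Nanog and Gm397, and, of each list, up to 3 genes per direction with the largest called change and otherwise up to 2 with the highest mean over clones, with 1 probe per gene. Mlana, Kit, Acp5, Ctsa and Otx2 between PαS- and OP-derived clones, and genes used as markers, were chosen after their values were seen. The fit was tested on simulated data. Alternatives were normexp background correction (offset 50), quantile scaling, the deposited table, no filter, slide or replicate as a block, other probes, leaving out each array, and leaving out the 5 low clones. Chosen after seeing the data were all alternatives for the number of probes called between TTF-derived clones and ES cells, and leaving out the low clones within slides, in list counts and medians and in the correlations with Mitf.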

Additional observations from a re-analysis of the deposited data

Results flagged for a closer look

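Among 42 sets of 5 clones (7 probes in 6 groups), 1 held a clone far from the rest by Dixon's criterion, and chance alone flags such clones now and then, in about 0.05 of sets. The main Tfe3 probe read 0.03 in 4F-PαS-iPS #3, against 0.47 to 0.64 in the other 4 clones of that group, a gap of 0.72 of the whole range.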

How the results depend on the processing

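The number of called probes moved with the processing. With normexp it went from 443 to 163 between PαS- and OP-derived clones, from 5, 1246, 1595 and 1475 to 177, 268, 478 and 414 between 3F- and 4F-clones of PαS, OP, TTF and all sources, and from 10001 to 5160 and 10170 to 5524 for all and TTF-derived clones against ES cells. With slide as a block it was 277 in the first, and 0, 168, 7 and 395 between 3F- and 4F-clones, and without the low clones the latter were 0, 52, 591 and 907. With no fold minimum 1019, 2237, 2790 and 5857 passed (PαS against OP, then 3F against 4F in OP, TTF and all sources), and with no filter 15899 for TTF-derived clones against ES cells. Leaving out 1 array gave 173 to 1269 between PαS- and OP-derived clones, and 0 to 531, 457 to 2270, 840 to 1931 and 1254 to 1774 between 3F- and 4F-clones, where 531 came without 4F-PαS-iPS #3. Quantile scaling moved the split of higher and lower calls from 1087 and 159 to 728 and 355 in OP-, from 1096 and 499 to 908 and 842 in TTF-, and from 1179 and 296 to 945 and 441 over all sources. The cause was not tested.

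The replicate numbers did not pair the clones, since 16 of 75 same-numbered pairs had a correlation of deviations over 0.1 (median -0.0004). With the replicate block 585 probes were called between PαS- and OP-derived clones and 0, 1528, 1825 and 1516 between 3F- and 4F-clones, and it changed no call of a member.

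Mitf was 0.93 higher in PαS- than in OP-derived clones with normexp and 1.33 to 1.63 higher with 1 clone left out. Of the main member probes 6 calls were made over the comparisons of 3F with 4F and of clones with ES cells. With normexp all 6 were lost and 1 other appeared (Tfec, 3F minus 4F in PαS-derived clones). There were 2 calls with the other probes of each member (both of the second Tfec probe, which the filter let in through 4F-TTF-iPS alone) and 4 to 8 with 1 array left out. Differences of members that missed the threshold changed sign. For 3F minus 4F these were Mitf in OP (-0.30 without the low clones) and over all sources (-0.06 normexp, -0.09 quantile, -0.16 without the low clones, -0.005 to 0.20 with 1 clone left out), Tfeb in OP (-0.26 quantile, -0.08 slide, -0.024 without the low clones, -0.13 to 0.19) and in TTF (-0.16 quantile, -0.07 to 0.18), and Tfec in OP (-0.23 quantile, -0.31 slide, -0.06 without the low clones, -0.21 to 0.55). Against ES cells Tfeb was -0.20 with normexp over all clones and -0.28 in TTF-derived clones, and -1.32 to 1.96 and -1.38 to 1.89 with 1 array left out. Tfe3 was -0.79 to 0.60 and -0.76 to 0.64. The second Tfec probe, which had passed at 2.10 in TTF-derived clones against ES cells, was -0.0037 there with normexp. Signal over background limits the weak Mitf and second Tfec probes.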
